A study of Danio rerio with 23 samples.

Results

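Endodermal cells induced by Neurod1 were set against wild-type enteroendocrine cells (WT EECs), the hormone-secreting cells of the gut epithelium, to ask which genes of the EEC profile the induced endoderm reached and which it lacked. The 7 libraries, of 23 in the series, were chosen by their labels, 4 of Neurod1 endoderm and 3 of WT EECs. Neurod1 endoderm came from zebrafish of the AB strain, wild type in genotype, that carried Tg(sox17:dsred) and the heat-inducible transgene hsp70:neurod1. Heat shock was given at 38 hpf (hours post fertilisation) and again at 48 hpf, and dsred+ cells were sorted from their trunks at 52 hpf. WT EECs were the GFP+ gut cells of wild-type AB larvae carrying Tg(pax6b:GFP), sorted at 4 dpf (days post fertilisation) without heat shock. Control endoderm was the background, with 3 libraries of dsred+ trunk cells from wild-type AB animals that carried Tg(sox17:dsred), received the same heat shocks and had no second transgene. A further 7 libraries served to define gene sets, 4 of GFP+ gut cells at 4 dpf from larvae homozygous for a deletion in neurod1 (neurod1delUCE) and 3 of heat-shocked dsred+ cells at 52 hpf carrying an Ascl1a transgene. Beyond that, they entered only a fit of all 23 libraries, tried as an alternative. That fit also held heat-shocked endoderm at 52 hpf carrying transgenes for deleted forms of Neurod1 (Neurod1delUCE or Neurod1delECD).

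The hsp70l promoter that drives the transgene is not restricted to the gut, and dsred marks the endodermal lineage of the trunk as a whole, whereas pax6b:GFP selects cells that already express an endocrine gene. Each library was 1 pool of sorted cells, from about 150 trunks and 2000 to 4000 cells for endoderm, and from about 200 guts and 1000 to 2000 cells for EECs. Pancreatic tissue was avoided at both dissections. Stage, dissected tissue, sort, reporter line, dissociation enzyme and heat shock all changed together with the group, so their parts in the differences between Neurod1 endoderm and WT EECs cannot be told apart. In bulk RNA of sorted pools, fewer cells of a type and less RNA per cell cannot be told apart either.

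EECs arise from secretory precursors of the gut epithelium. In zebrafish the basic helix-loop-helix factor Ascl1a starts the secretory lineage, and the related factor Neurod1 acts in endocrine precursors together with Pax6, Insm1, Rfx6 and Nkx2.2. Mature EECs cleave prohormones, pack them into dense-core granules with granin proteins, and release them by calcium-dependent exocytosis when nutrients or irritants open their ion channels.

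Total counts were 11278779 to 17145056 in Neurod1 endoderm, 8626863 to 13518657 in WT EECs and 11514570 to 16144085 in control endoderm. Replicate 3 of WT EECs was the shallowest library and held the fewest genes with a count (16352, against 20100 and 21085 in the other WT EEC libraries), and results that changed without it are given both ways. The feature for the reading frame of the transgene had 20.2, 38.9, 58.2 and 21.5 counts scaled to library size (CPM) in Neurod1 endoderm, against 1.18, 0.286 and 0.126 CPM in control endoderm. Every Neurod1 library was far above every control library, and the feature was not counted in the EEC files. SOX17 itself was under 2 CPM in all 10 libraries, of which only the endoderm libraries carried the reporter. Sorting on dsred thus did not go with a high level of the gene's own RNA. RNA of dsred was not examined.

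Neurod1 endoderm differed from WT EECs in many genes, and few genes were called against control endoderm (FDR at most 0.1 in edgeR's quasi-likelihood test on 18798 genes). Against WT EECs, 4943 genes (26.3%) were higher and 4009 genes (21.3%) were lower in Neurod1 endoderm. Against control endoderm, 8 genes (0.0426%) were higher and 1 gene (0.00532%) was lower in Neurod1 endoderm, with 720 genes at an unadjusted p under 0.05. DESeq2 called 96 higher (0.511%) and 39 lower (0.207%) against control endoderm. WT EECs against control endoderm gave 3753 genes higher (20%) and 4851 lower (25.8%). The number of calls against control moved with single libraries. No gene was called without control replicate 1 or without control replicate 2, 1 gene was called without Neurod1 replicate 1 or without replicate 4, and 14 were called without Neurod1 replicate 2 or without replicate 3.

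To describe the EEC profile with libraries that enter none of these comparisons, genes were taken as EEC-side where the neurod1delUCE EECs exceeded Ascl1a endoderm by a log2 fold change of at least 2 at FDR at most 0.1, and as endoderm-side where they were as far below (14.8% and 13.7% of 16888 genes). That contrast carries the same change of stage, sort, reporter and heat shock. It misses EEC genes that the mutant has lost or sets them on the endoderm side, and it can take in genes that the mutant has gained. Of 2340 EEC-side genes tested, 2021 (86.4%) were lower in Neurod1 endoderm than in WT EECs, 2 were higher and 317 did not pass. Of 2313 endoderm-side genes tested, 1929 (83.4%) were higher in Neurod1 endoderm, 5 were lower and 379 did not pass. The mean level of the EEC-side genes, as log2(CPM + 1), was 2.14 to 2.28 in the Neurod1 libraries, 4.79 to 4.93 in WT EECs and 1.91 to 2.44 in control endoderm. The Neurod1 libraries thus lay within the range of the controls on this mean and under every EEC library. Across the EEC-side genes, Pearson's r of log2(CPM + 1) with WT EEC replicate 1 was 0.61 to 0.658 in Neurod1 endoderm and 0.534 to 0.58 in control endoderm, and each Neurod1 library also had a higher r with WT EEC replicates 2 and 3 than each control had. These r values are descriptions across genes, which are not independent. Against control endoderm, the median log2 fold change of the EEC-side genes was -0.04 in Neurod1 endoderm (quartiles -0.60 and 0.54), against -8e-04 over all genes tested. Of the 2340 EEC-side genes, 7 were called higher and 1 lower, against 8 higher and 1 lower among all 18798 genes tested. Most of the few calls thus fell on the EEC side.

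The transcription factors of the endocrine lineage ranged widely, with some near the EEC level and others close to the background. Of 34 tested, 19 (55.9%) were lower in Neurod1 endoderm than in WT EECs, 6 were higher and 9 did not pass, with a median log2 fold change of -1.43 against 0.19 over all genes. Over all genes tested 21.3% were lower and 26.3% were higher, the background for this list and each list below. The list, here and below, includes pax6b, on whose reporter WT EECs were sorted, and neurod1, counted differently in the endoderm and EEC files. Neither of their differences from WT EECs is a finding. Against control endoderm, all 4 Neurod1 libraries exceeded all controls for 10 of the 34, where 3.98% of all genes tested did so, and 3 were called higher (pax4, insm1b and fev). The list holds genes that the study had reported as induced by Neurod1 from these same libraries, among them pax4, rfx6, insm1a, insm1b, nkx2.2a and pax6b. The excess of the list over control is therefore no independent result.

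insm1a, a zinc-finger repressor of endocrine precursors, was among the 9 members that did not pass against WT EECs. It had 198, 53.1, 89.1 and 136 CPM in Neurod1 endoderm, 157, 143 and 121 CPM in WT EECs and 16.1, 10.5 and 29.5 CPM in control endoderm. The Neurod1 and EEC libraries overlapped (log2 fold change -0.24 ± 0.45 SE, adjusted p = 0.70), and both lay above every control, although the difference of Neurod1 endoderm from control did not pass in edgeR (log2 fold change 2.67, adjusted p = 0.18) and passed in DESeq2 (adjusted p = 7.9e-05). Its paralog insm1b had 322, 111, 210 and 327 CPM in Neurod1 endoderm, 796, 379 and 756 CPM in WT EECs and 13.6, 20.8 and 22.4 CPM in control endoderm. The 3 groups did not overlap, and insm1b was lower than in WT EECs (log2 fold change -1.41 ± 0.40, adjusted p = 0.018) and higher than in control endoderm (3.68, adjusted p = 0.038), at 37.7% of the mean EEC level.

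A group of 3 early endocrine factors reached 14.6 to 21.0% of the EEC mean and was near zero in control endoderm. pax4, a paired-homeodomain factor of endocrine precursors, had 103, 12.0, 16.8 and 40.7 CPM in Neurod1 endoderm, 217, 410 and 257 CPM in WT EECs and no count in any control library. All Neurod1 libraries were above the controls and below the EECs (log2 fold change -2.78 ± 0.69 against WT EECs, adjusted p = 0.013, and adjusted p = 0.051 against control). rfx6, a winged-helix factor needed for endocrine differentiation, had 59.6, 17.6, 4.73 and 35.8 CPM in Neurod1 endoderm, 95.4, 102 and 224 CPM in WT EECs and 0.157, 0 and 0.818 CPM in control endoderm. It was lower than in WT EECs (log2 fold change -2.25 ± 0.79, adjusted p = 0.043), a call that was lost without WT EEC replicate 3 (-1.69, adjusted p = 0.14), and the groups did not overlap. nkx2.2a, a homeodomain factor of islet and gut endocrine cells, had 79.3, 16.0, 12.9 and 44.0 CPM in Neurod1 endoderm, 261, 311 and 128 CPM in WT EECs and 0.551, 0.285 and 3.71 CPM in control endoderm. Its levels followed the same order of groups (log2 fold change -2.62 ± 0.79 against WT EECs, adjusted p = 0.023). Replicate 1 had the highest level of pax4, rfx6 and nkx2.2a among the Neurod1 libraries, with replicate 4 next.

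fev, an ETS factor of serotonin neurons and endocrine precursors, was higher than in control endoderm and far below the EEC level. It had 8.24, 7.09, 15.0 and 4.68 CPM in Neurod1 endoderm, 971, 1068 and 712 CPM in WT EECs and 0.472, 0.285 and 0.755 CPM in control endoderm. Every Neurod1 library was above the controls (log2 fold change 4.05, adjusted p = 0.038) at 0.954% of the EEC mean (log2 fold change -6.71 ± 0.47 against WT EECs, adjusted p = 2.0e-05). pax6b, a paired-homeodomain factor of all endocrine cells, had 16.1, 18.7, 35.8 and 11.1 CPM in Neurod1 endoderm, 616, 369 and 401 CPM in WT EECs and 1.34, 1.62 and 5.16 CPM in control endoderm. WT EECs were sorted on a pax6b reporter, so its level there is no finding, and its excess over control did not pass in edgeR (log2 fold change 2.90, adjusted p = 0.22) and passed in DESeq2 (adjusted p = 0.00018), with no overlap of the Neurod1 and control libraries. Endogenous neurod1 had 73.7, 23.0, 36.2 and 39.0 CPM in Neurod1 endoderm, 793, 844 and 699 CPM in WT EECs and 2.75, 0 and 4.53 CPM in control endoderm. In the endoderm files this gene was counted outside the reading frame that the transgene carries, and in the EEC files over the whole gene, so its values in Neurod1 endoderm and WT EECs are not like for like.

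**Figure D1:**
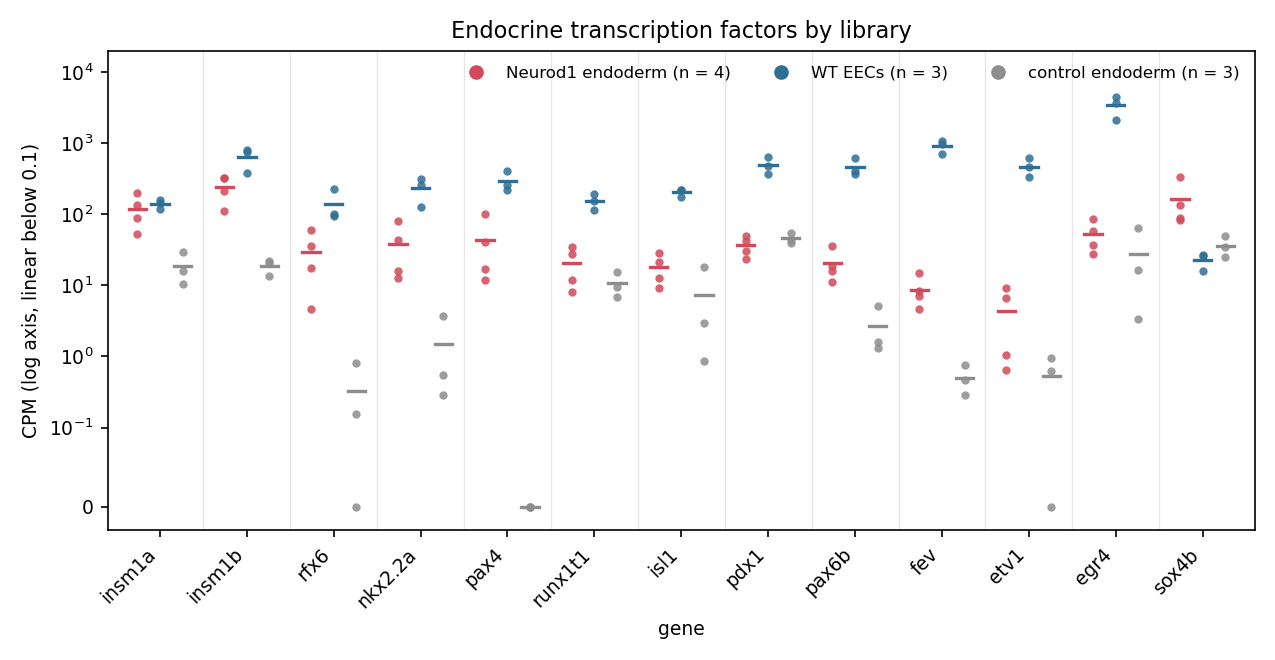
CPM (log axis, linear below 0.1) of 13 endocrine transcription factors, with 1 point per library and bars at group means for Neurod1 endoderm (n = 4), WT EECs (n = 3) and control endoderm (n = 3). insm1a overlapped between Neurod1 endoderm and WT EECs, pax4 had no count in control endoderm, and sox4b was highest in Neurod1 endoderm.

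Other factors of WT EECs were far lower in Neurod1 endoderm. etv1, an ETS factor, had 0.641 to 9.20 CPM in Neurod1 endoderm, 335 to 610 CPM in WT EECs and 0 to 0.943 CPM in control endoderm (log2 fold change -6.74 ± 0.99 against WT EECs). egr4, an immediate early zinc-finger factor, had 27.6 to 86.3 CPM in Neurod1 endoderm, 2148 to 4471 CPM in WT EECs and 3.33 to 63.5 CPM in control endoderm (-6.03 ± 0.86). lmx1al had no count in Neurod1 endoderm and 10.6, 4.90 and 21.0 CPM in WT EECs, at least 53.9-fold lower with a floor of 3 counts per library. pdx1, a homeodomain factor of pancreas and gut endoderm, had 30.6, 49.2, 42.6 and 23.4 CPM in Neurod1 endoderm, 643, 366 and 473 CPM in WT EECs and 39.6, 55.4 and 44.0 CPM in control endoderm, so the Neurod1 libraries overlapped the controls (log2 fold change -3.76 ± 0.33 against WT EECs). isl1, named after its values were seen, and runx1t1 were lower too, at 8.71% and 13.4% of the EEC mean. Each of these genes was below WT EECs in all 4 Neurod1 libraries.

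sox4b, a SoxC factor of early secretory precursors, ran the other way. It had 338, 84.3, 88.4 and 136 CPM in Neurod1 endoderm, 26.6, 25.8 and 15.8 CPM in WT EECs and 49.9, 34.4 and 24.7 CPM in control endoderm. It was higher than in WT EECs (log2 fold change 2.83 ± 0.54, adjusted p = 0.0024), and all Neurod1 libraries also lay above the controls, where the difference did not pass in edgeR (2.15, adjusted p = 0.51) and passed in DESeq2 (adjusted p = 0.013). The paralog SOX11 (ENSDARG00000077811) overlapped between the groups, with 41.9 to 95.8 CPM in Neurod1 endoderm and 36.4 to 110 CPM in WT EECs (-0.20 ± 0.45).

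Beyond transcription factors, 5 of the 8 genes called above control endoderm were anxa4, rab3da, ano8a, grn1 and unm_sa1261. anxa4, which codes for a calcium-binding annexin, was the most abundant, with 2505, 1119, 1694 and 2202 CPM in Neurod1 endoderm, 10210, 9181 and 7147 CPM in WT EECs and 308, 287 and 241 CPM in control endoderm. Like the calls of pax4, insm1b and fev against control, each of these 5 calls was lost without control replicate 1 and without control replicate 2, while the log2 fold changes stayed near their values with all libraries, at 2.87 and 2.79 for anxa4 and 3.34 and 3.30 for rab3da without these replicates. The 3 groups of anxa4 did not overlap (log2 fold change -2.23 against WT EECs and 2.75 against control, adjusted p = 0.00053 and 0.038). rab3da, a Rab3 GTPase of secretory vesicles, had 4.53 to 9.30 CPM in Neurod1 endoderm, 31.2 to 42.6 CPM in WT EECs and 0.666 to 0.818 CPM in control endoderm, and ano8a, of the anoctamin family, had 1.33 to 3.83 CPM, 18.2 to 43.9 CPM and 0 to 0.0786 CPM. grn1, a granulin, and unm_sa1261 exceeded WT EECs in every Neurod1 library, with 45.7 to 97.3 CPM and 50.8 to 125 CPM in Neurod1 endoderm, 10.9 to 31.0 CPM and 26.9 to 43.3 CPM in WT EECs, and 4.95 to 9.32 CPM and 9.91 to 12.5 CPM in control endoderm. The 1 gene called lower than control, cacna1ba, codes for a subunit of a neuronal calcium channel and had 1.03 to 2.86 CPM in Neurod1 endoderm, 67.3 to 144 CPM in WT EECs and 12.5 to 18.9 CPM in control endoderm.

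Most hormone genes were lower in Neurod1 endoderm than in WT EECs. The summed level of the list was 336 to 1387 CPM in Neurod1 endoderm, 28265 to 73262 CPM in WT EECs and 191 to 552 CPM in control endoderm. Of 36 hormone and neuropeptide genes tested, 22 (61.1%) were lower in Neurod1 endoderm than in WT EECs, 5 were higher and 9 did not pass, with a median log2 fold change of -3.61. None was called against control endoderm, where 0.0426% of all genes tested were called higher. All Neurod1 libraries exceeded all controls for 4 of the 36, where 3.98% of all genes tested did so. The other 21 of the 57 genes on the list were not tested, since their counts were too low or missing.

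The abundant peptides of WT EECs were at or near background. PYY (ENSDARG00000035832), the peptide YY precursor that slows gut motility, had 0.734, 1.95, 0.866 and 0.769 CPM in Neurod1 endoderm, 31229, 34837 and 10326 CPM in WT EECs and 1.02, 0.285 and 1.07 CPM in control endoderm, so the Neurod1 libraries overlapped the controls (log2 fold change -14.53 ± 0.82 against WT EECs). penka, a proenkephalin, had 0.192 to 0.798 CPM in Neurod1 endoderm against 8306 to 18783 CPM in WT EECs. CCK (ENSDARG00000070810), the cholecystokinin precursor, and insl5b, an insulin-like peptide, had no count in any Neurod1 library, against 1782 to 7649 CPM and 31.6 to 194 CPM in WT EECs, which was at least 19080-fold and 441-fold lower. adcyap1a, calca, mlnl, nmbb and GAL, which code for the peptides PACAP, calcitonin, motilin-like, neuromedin B and galanin, each stood under 1% of the EEC mean and below every EEC library. insl5a was at 0.0773% of the EEC mean, with 3.83, 0.709, 1.13 and 1.79 CPM in Neurod1 endoderm against 4407, 1901 and 945 CPM in WT EECs, and lay above all controls (0.157 to 0.314 CPM).

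ghrl, the ghrelin precursor, was closer to the EEC level. It had 29.5, 7.45, 23.1 and 15.8 CPM in Neurod1 endoderm, 176, 47.2 and 48.2 CPM in WT EECs and 1.81, 2.57 and 0.880 CPM in control endoderm. The 3 groups did not overlap, at 20.9% of the EEC mean (log2 fold change -2.26 ± 0.59, adjusted p = 0.012), and the excess over control passed in DESeq2 (adjusted p = 6.6e-05) but not in edgeR (3.44, adjusted p = 0.23). gcga, a proglucagon, had 0.816, 11.7, 78.0 and 40.8 CPM in Neurod1 endoderm, 1409, 267 and 656 CPM in WT EECs and 0.944, 1.90 and 28.7 CPM in control endoderm, and was lower than in WT EECs (-4.56 ± 1.38, adjusted p = 0.023) with overlap of the endoderm groups.

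The 5 hormone genes called higher than in WT EECs were sst1.2, ins, CARTPT, npb and NPY, of which all but sst1.2 were named after their values were seen. CARTPT, a satiety peptide, had 6.54 to 35.3 CPM in Neurod1 endoderm, 4.60 to 8.95 CPM in WT EECs and 3.30 to 25.2 CPM in control endoderm, and npb and NPY stayed under 5 CPM in every library. The call of CARTPT was lost without Neurod1 replicate 1 or 2 and without WT EEC replicate 2 or 3 (log2 fold changes of 1.66, 1.56, 1.80 and 1.69), and that of npb without Neurod1 replicate 3 or 4 and without WT EEC replicate 2 or 3 (2.28, 3.14, 2.65 and 2.95). sst1.2, a somatostatin precursor, had 106, 168, 434 and 22.6 CPM in Neurod1 endoderm, 1.09, 0.283 and 2.44 CPM in WT EECs and 3.15, 2.95 and 177 CPM in control endoderm. It was above WT EECs in every Neurod1 library (log2 fold change 7.16 ± 1.82, adjusted p = 0.011), and control replicate 3 lay within the Neurod1 range. ins, insulin, had 4.32, 215, 176 and 0 CPM in Neurod1 endoderm, 0.779, 0 and 0 CPM in WT EECs and 5.43, 0 and 41.1 CPM in control endoderm (log2 fold change 8.42 ± 2.78 against WT EECs, adjusted p = 0.034). It was high in Neurod1 replicates 2 and 3 and absent from replicate 4, with the endoderm groups overlapping, and whether pancreatic cells entered the dissected trunks was not tested. The markers of exocrine pancreas summed to 81.3 to 142 CPM in Neurod1 endoderm, 965, 1027 and 25.8 CPM in WT EECs and 62.3 to 78.6 CPM in control endoderm. Different genes made up these sums. amy2al1 had 31.1 to 50.4 CPM in Neurod1 endoderm and at most 0.0779 CPM in WT EECs, and prss59.2 had at most 0.577 CPM in Neurod1 endoderm and 177, 201 and 2.35 CPM in WT EECs. The sums do not measure cells that express ins.

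**Figure D2:**
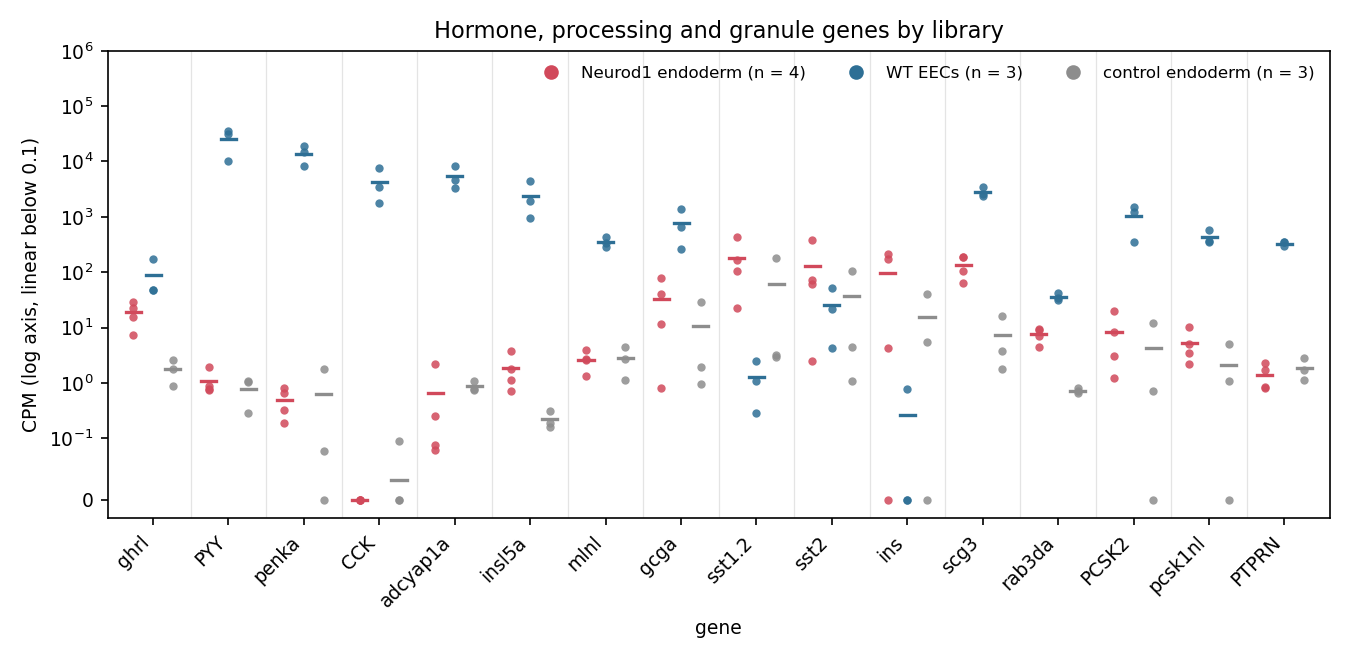
CPM (log axis, linear below 0.1) of 11 hormone genes and 5 genes of prohormone processing and granules, with 1 point per library and bars at group means for Neurod1 endoderm (n = 4), WT EECs (n = 3) and control endoderm (n = 3). PYY, penka and CCK of Neurod1 endoderm lay with the controls, ghrl, scg3 and rab3da lay between the controls and WT EECs, and sst1.2 and ins were above WT EECs in 4 and 3 of 4 Neurod1 libraries.

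Genes that process and pack hormones were mostly lower. Of 28 tested, 23 (82.1%) were lower in Neurod1 endoderm than in WT EECs, 2 were higher and 3 did not pass, with a median log2 fold change of -4.53 and summed levels of 353 to 448 CPM in Neurod1 endoderm, 6704 to 10019 CPM in WT EECs and 181 to 284 CPM in control endoderm. scg3, a granin that anchors cargo to the granule membrane, had 190, 64.4, 105 and 190 CPM in Neurod1 endoderm, 3523, 2614 and 2415 CPM in WT EECs and 3.85, 1.81 and 16.1 CPM in control endoderm. All Neurod1 libraries lay above the controls at 4.82% of the EEC mean (log2 fold change -4.37 ± 0.68 against WT EECs, adjusted p = 0.00078). Its excess over control passed in DESeq2 (adjusted p = 2.0e-07) and not in edgeR (4.23, adjusted p = 0.17). The prohormone convertase PCSK2 had 1.22, 19.9, 8.40 and 3.08 CPM in Neurod1 endoderm, 1206, 351 and 1517 CPM in WT EECs and 0.708, 0 and 12.1 CPM in control endoderm, with the endoderm groups overlapping. PTPRN (ENSDARG00000077047), a granule membrane protein, SCG5 (ENSDARG00000032126), a chaperone of the convertase, and pcsk1nl, a convertase inhibitor, were at 0.431%, 0.486% and 1.21% of the EEC mean. RAB27A, a GTPase of vesicle docking, overlapped between the groups with 15.6 to 20.8 CPM in Neurod1 endoderm and 16.4 to 23.0 CPM in WT EECs (log2 fold change -0.09 ± 0.32).

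The machinery of release and of excitability followed the same direction. Of 35 exocytosis genes tested, 24 (68.6%) were lower in Neurod1 endoderm than in WT EECs, 1 was higher and 10 did not pass (median log2 fold change -3.38). UNC13A, which primes vesicles for fusion, had 0.200 to 1.33 CPM in Neurod1 endoderm, 40.0 to 75.3 CPM in WT EECs and 0.944 to 2.45 CPM in control endoderm, and SYT11 (ENSDARG00000057913), cadpsa and stxbp5l were each under 2% of the EEC mean. Of 44 ion channel genes tested, 34 (77.3%) were lower, 2 were higher and 8 did not pass (median -4.67). TRPA1 (ENSDARG00000031875), the irritant receptor channel of EECs, had 1.63, 0.886, 1.93 and 1.35 CPM in Neurod1 endoderm, 674, 315 and 730 CPM in WT EECs and 1.1, 1.14 and 1.07 CPM in control endoderm. The Neurod1 libraries overlapped the controls (log2 fold change -8.61 ± 0.43 against WT EECs, adjusted p = 5.4e-06). The calcium channel gene cacna1ha stood at 0.682% of the EEC mean, and KCNB2 and KCNC1 (ENSDARG00000032959), potassium channel genes, at under 1%.

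The lists of amine genes and of nutrient and hormone receptors had smaller shares of lower genes than the lists above. Most of their EEC-side members stood at low levels. Of those with a mean of at least 10 CPM in WT EECs, 1 of 6 amine genes and 2 of 7 genes of the receptor list reached 10 to 50% of the EEC mean. The others stayed under 10%. Of 20 amine genes tested, 7 (35%) were lower in Neurod1 endoderm, 2 were higher and 11 did not pass, against 21.3% lower and 26.3% higher over all genes. TPH1 (ENSDARG00000036082), which makes the serotonin precursor, had 2.69, 3.99, 3.40 and 9.81 CPM in Neurod1 endoderm, 420, 403 and 220 CPM in WT EECs and 2.83, 5.42 and 4.72 CPM in control endoderm, with the endoderm groups overlapping (log2 fold change -6.12 ± 0.52 against WT EECs). DDC, the decarboxylase of the next step, had 0.0641 to 0.600 CPM in Neurod1 endoderm against 166 to 324 CPM in WT EECs. Of 19 genes tested on the receptor list, which also holds insulin receptor substrates, 10 (52.6%) were lower, 1 was higher and 8 did not pass. CASR, the calcium-sensing receptor, had 0.192 to 1.6 CPM in Neurod1 endoderm, 48.3 to 75.4 CPM in WT EECs and 0 to 0.818 CPM in control endoderm. The 2 genes of this list above 10% were adra2a, an adrenergic receptor gene, and IRS2 (ENSDARG00000075282), an insulin receptor substrate, at 31.7% of the EEC mean. adra2a had 36.9, 3.63, 4.46 and 18.8 CPM in Neurod1 endoderm, 27.7, 63.1 and 53.7 CPM in WT EECs and 0.315, 0.0952 and 0.692 CPM in control endoderm. Replicate 1 lay in the EEC range and the others below it, and the difference from WT EECs did not pass (-1.6 ± 0.76, adjusted p = 0.12), though it did without Neurod1 replicate 1 (-2.42, adjusted p = 0.032).

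The shares of the EEC level set these groups side by side. Over the 1830 EEC-side genes with a mean of at least 10 CPM in WT EECs, the median share of the EEC mean was 11.6% in Neurod1 endoderm and 11.4% in control endoderm. Over the 19 endocrine transcription factors among them it was 8.71% in Neurod1 endoderm and 0.81% in control endoderm, over 20 hormones 0.0897% and 0.11%, and over 20 processing and granule genes 2.02% and 1.28%. Of the 19 transcription factors, 2 reached at least 50% of the EEC mean in Neurod1 endoderm, 7 reached 10 to 50%, 7 reached 1 to 10% and 3 stayed below 1%, against 0, 4, 5 and 10 in control endoderm. Of the 20 hormones, 15 stayed below 1% in Neurod1 endoderm and 14 in control endoderm. The exocytosis genes had a median of 2.85% in Neurod1 endoderm and 4.32% in control endoderm, and the ion channel genes of 1.90% and 1.14%. Both shares use the same WT EEC libraries, and they are given as a description. The list of transcription factors holds genes reported by the study as induced in these same Neurod1 libraries, so its higher share than in control is not independent of that choice.

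**Figure D3:**
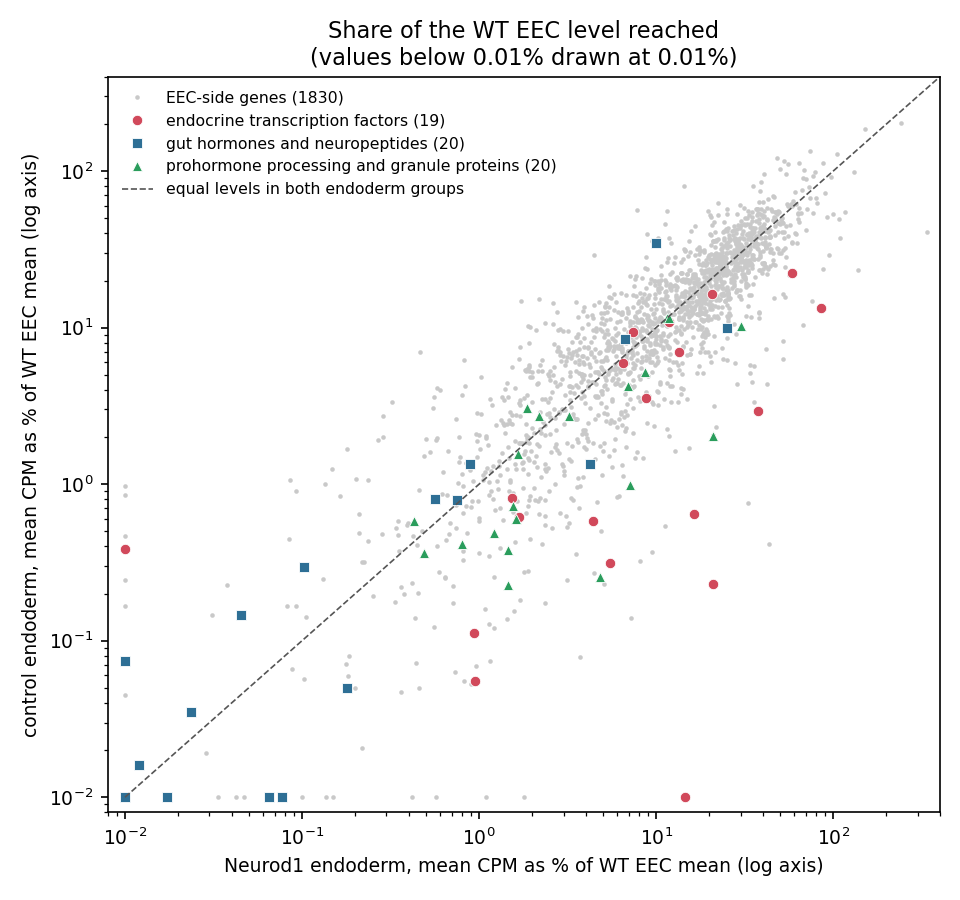
Mean CPM as a percentage of the WT EEC mean in Neurod1 endoderm (x axis, log) and control endoderm (y axis, log), for 1830 EEC-side genes (grey) with 3 gene lists in colour; the dashed line marks equal levels. The endocrine transcription factors had medians of 8.71% in Neurod1 endoderm and 0.81% in control endoderm, while most hormones stayed below 1% in both.

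Few EEC-side genes were called above control endoderm, though they made up 7 of the 8 such calls over all genes. In 140 of the 2340 (5.98%) all Neurod1 libraries exceeded all controls, where 3.98% of all genes tested did so. A log2 fold change of at least 1 above control was seen in 344 (14.7%), and one of at least 1 below control in 335 (14.3%), against 6.34% and 8.25% of all genes tested. A set of 9 genes, chosen after their values were seen, lay above every control in all Neurod1 libraries, some of them narrowly. Their fitted log2 fold change over control was at least 1. These genes averaged at least 10 CPM in Neurod1 endoderm and did not differ by the test from WT EECs. They were adra2a, raly, rtn1a, insm1a, si:dkey-234i14.6, nectin1b, ca16b, ARHGEF10L (ENSDARG00000074244) and PLOD2. rtn1a, a reticulon of neuroendocrine cells, had 398, 194, 389 and 428 CPM in Neurod1 endoderm, 637, 537 and 388 CPM in WT EECs and 30.4, 16.5 and 116 CPM in control endoderm. Replicates 1, 3 and 4 overlapped the EEC range and replicate 2 lay under it (log2 fold change -0.56 ± 0.56 against WT EECs). nectin1b, a cell adhesion gene, had 192, 58.8, 56.0 and 212 CPM in Neurod1 endoderm, 82.8, 78.9 and 121 CPM in WT EECs and 33.2, 12.8 and 20.0 CPM in control endoderm, with the Neurod1 libraries on both sides of the EECs. A test that does not pass does not show that such genes were at the EEC level, and without Neurod1 replicate 1 adra2a, si:dkey-234i14.6 (log2 fold change -1.89, adjusted p = 0.020) and PLOD2 (-1.30, adjusted p = 0.059) were lower than in WT EECs.

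The study lists tm4sf4 and c2cd4a beside the endocrine factors. tm4sf4, a tetraspanin-like membrane protein, had 715, 275, 442 and 867 CPM in Neurod1 endoderm, 4574, 5097 and 3277 CPM in WT EECs and 131, 156 and 148 CPM in control endoderm. c2cd4a had 5.71, 15.5, 10.8 and 8.59 CPM in Neurod1 endoderm, 996, 568 and 559 CPM in WT EECs and 0.315, 0.666 and 1.95 CPM in control endoderm. Neither overlapped between any of the groups, and the Neurod1 mean was 13.3% of the EEC mean for tm4sf4 and 1.43% for c2cd4a.

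Notch signalling, by which secretory precursors inhibit their neighbours, ran against the endocrine groups. Of 31 genes tested, 13 (41.9%) were higher in Neurod1 endoderm than in WT EECs, 3 (9.68%) were lower and 15 did not pass (median log2 fold change 1.54). Over all genes tested, 26.3% were higher and 21.3% were lower. The receptor NOTCH1 (ENSDARG00000103554) had 216, 59.7, 92.5 and 194 CPM in Neurod1 endoderm, 18.4, 13.8 and 15.3 CPM in WT EECs and 18.3, 28.8 and 95.1 CPM in control endoderm, and the target her6 had 80.4 to 406 CPM in Neurod1 endoderm, 0 to 28.0 CPM in WT EECs and 56.0 to 85.3 CPM in control endoderm. Both were above WT EECs in all Neurod1 libraries (log2 fold change 3.15 ± 0.65 and 4.02 ± 1.21). The ligands were mixed. dll4 had 80.6, 17.6, 23.3 and 52.2 CPM in Neurod1 endoderm, 483, 184 and 179 CPM in WT EECs and 1.81, 2.19 and 10.5 CPM in control endoderm, the same order of groups as the endocrine factors (-2.70 ± 0.70 against WT EECs, adjusted p = 0.012). dlb overlapped with WT EECs, with 42.4 to 114 CPM in Neurod1 endoderm, 60.6 to 121 CPM in WT EECs and 10.7 to 52.5 CPM in control endoderm.

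The list of secretory lineage genes, which includes markers of the mucus-producing goblet cell, had 3 of 14 tested (21.4%) higher in Neurod1 endoderm, 4 (28.6%) lower and 7 that did not pass. These shares were near those over all genes (26.3% higher and 21.3% lower). The 3 higher were agr1 and the reading frame and 3′ UTR features of ascl1a, which starts the secretory lineage in zebrafish. Of these only the 3′ UTR feature separated Neurod1 endoderm from WT EECs, with 70.6 to 106 CPM in Neurod1 endoderm and 11.2 to 37.3 CPM in WT EECs. Control endoderm had 103 to 135 CPM of it, so the endoderm groups overlapped. The reading frame had 0 to 1.77 CPM in Neurod1 endoderm, no count in WT EECs and 0.381 to 2.89 CPM in control endoderm. agr1, also on the list of skin markers, had 0.489 to 138 CPM in Neurod1 endoderm, 0 to 1.13 CPM in WT EECs and 1.81 to 143 CPM in control endoderm. The 4 lower were CREB3L1, GALNT12, muc13b and muc5.3, the last 2 of them mucin genes, and the call of GALNT12 was lost without WT EEC replicate 3 (log2 fold change -1.16, adjusted p = 0.14). agr1 was named after its values were seen. AGR2 (ENSDARG00000070480), a disulfide isomerase of goblet cells, had 99.7, 193, 222 and 99.1 CPM in Neurod1 endoderm, 238, 1016 and 21.0 CPM in WT EECs and 121, 165 and 127 CPM in control endoderm, so the WT EEC libraries themselves spanned the endoderm values, and the difference did not pass with all libraries, and passed without WT EEC replicate 3 (-2.01, adjusted p = 0.013). gfi1aa, a zinc-finger repressor, had 0.532 to 10.3 CPM in Neurod1 endoderm, 0 to 3.27 CPM in WT EECs and 0.629 to 1.52 CPM in control endoderm, and did not pass.

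Genes of proliferation and of cytosolic ribosomes were mostly higher in Neurod1 endoderm, and respiratory chain genes were mostly not called. Of 104 cell cycle and replication genes tested, 101 (97.1%) were higher in Neurod1 endoderm than in WT EECs, none was lower and 3 did not pass (median log2 fold change 4.60). Their sum was 12070 to 15214 CPM in Neurod1 endoderm, 458 to 1274 CPM in WT EECs and 10818 to 12382 CPM in control endoderm, so the Neurod1 libraries lay above every EEC library, and 3 of 4 of them above every control. All Neurod1 libraries exceeded all controls for 22 of the 104 genes, where 3.98% of all genes did so, and none was called against control. The genes of this list are not independent of each other, so the count is a description. foxm1, a factor that drives mitotic genes, had 34.4, 32.4, 54.5 and 46.0 CPM in Neurod1 endoderm, 0, 1.22 and 0 CPM in WT EECs and 18.2, 41.4 and 47.5 CPM in control endoderm. Of 81 cytosolic ribosomal protein genes, 71 (87.7%) were higher and none lower (median 1.4). Of 95 respiratory chain genes 83 did not pass, 11 (11.6%) were higher and 1 was lower, under the shares over all genes (26.3% higher and 21.3% lower).

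**Figure D4:**
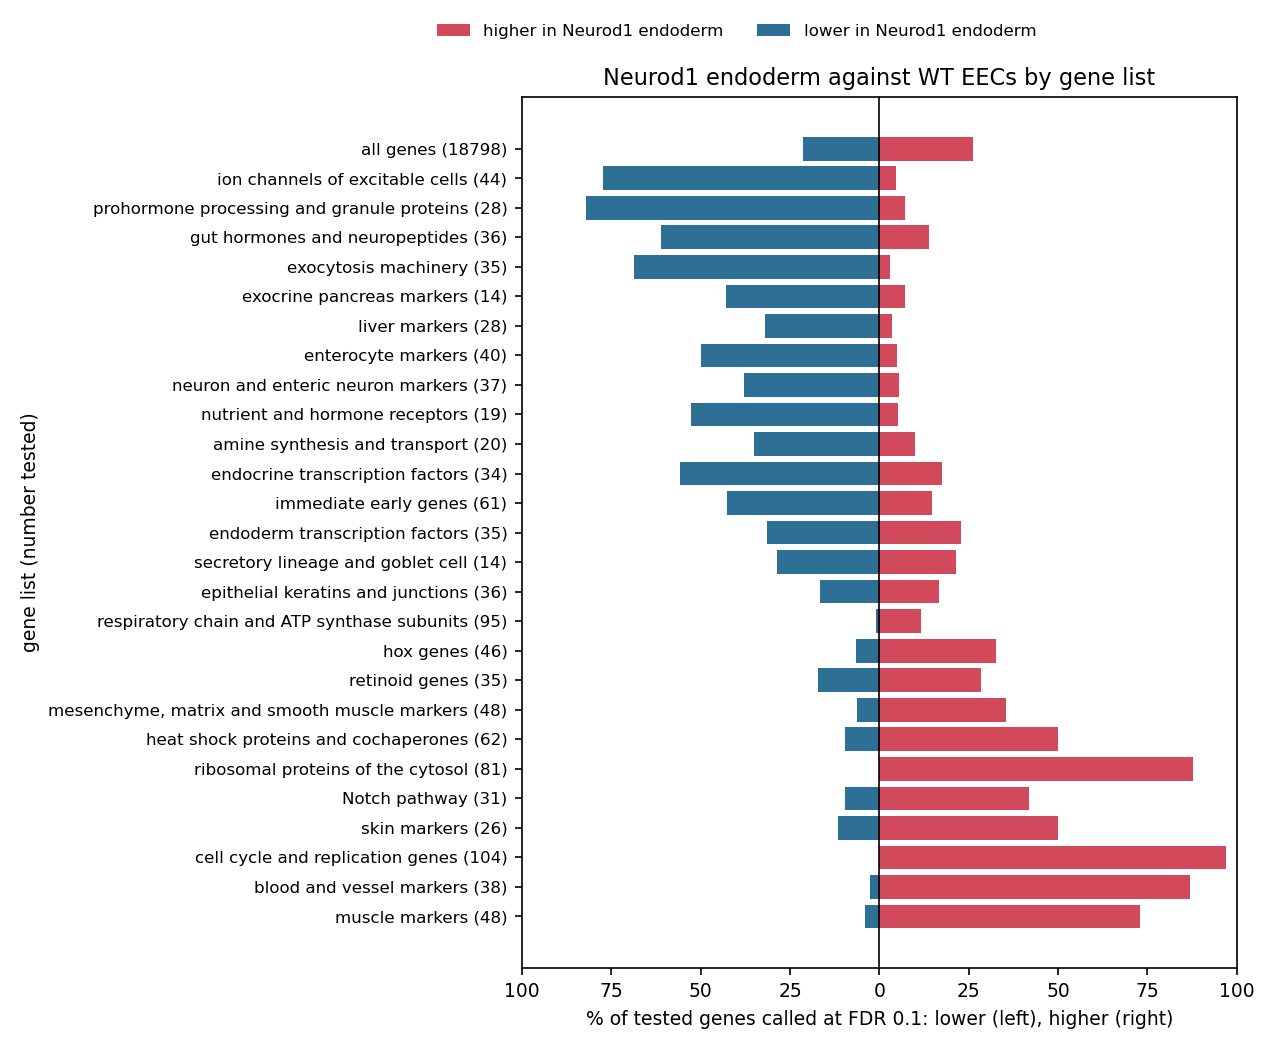
Share of the tested genes of each list (number in brackets) called lower (left) or higher (right) in Neurod1 endoderm against WT EECs at FDR 0.1, ordered by the list's median log2 fold change below the bar for all genes (21.3% lower, 26.3% higher). Granule and ion channel genes were mostly lower, and cell cycle, blood and ribosomal genes mostly higher.

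Heat shock genes were higher in 31 of 62 tested (50%) and lower in 6, against 26.3% higher and 21.3% lower over all genes. Their sums were 19146 to 31970 CPM in Neurod1 endoderm, 10682 to 11931 CPM in WT EECs and 19546 to 33284 CPM in control endoderm. HSPB1 (ENSDARG00000041065), a small chaperone, had 1665 to 3138 CPM in Neurod1 endoderm, 0 to 1.32 CPM in WT EECs and 1202 to 2627 CPM in control endoderm, and the list sums of Neurod1 and control endoderm overlapped. hsp70l, whose promoter drives the transgene, had 18.5, 200, 747 and 57.3 CPM in Neurod1 endoderm, 19.6, 10.5 and 43.7 CPM in WT EECs and 3.07, 401 and 15.3 CPM in control endoderm, with overlap of all 3 groups, and was higher than in WT EECs by the test without Neurod1 replicate 1 (log2 fold change 3.76, adjusted p = 0.092). Of 61 immediate early genes tested, 26 (42.6%) were lower, 9 were higher and 26 did not pass, against 21.3% lower and 26.3% higher over all genes. The clock gene PER1 (ENSDARG00000056885) had 0.0641 to 0.326 CPM in Neurod1 endoderm, 29.1 to 75.1 CPM in WT EECs and 0.476 to 1.81 CPM in control endoderm, and EGR2 and DUSP2 were also below every EEC library.

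Transcription factors of the endoderm itself were split. Of 35 tested, 8 (22.9%) were higher in Neurod1 endoderm, 11 (31.4%) were lower and 16 did not pass, near the shares over all genes. NR5A2, a nuclear receptor of gut, liver and pancreas, had 85.4, 168, 93.5 and 127 CPM in Neurod1 endoderm, 12.5, 12.2 and 35.4 CPM in WT EECs and 118, 161 and 159 CPM in control endoderm, and klf5l was higher than in WT EECs as well. onecut1, foxa2 and gata4 were lower in Neurod1 endoderm than in every EEC library, with foxa2, a pioneer factor of endoderm, at 29.9 to 51.7 CPM in Neurod1 endoderm, 133 to 233 CPM in WT EECs and 20.0 to 28.3 CPM in control endoderm. foxa3 overlapped in all groups (log2 fold change 0.02 ± 0.45). Of 35 retinoid genes 10 (28.6%) were higher and 6 (17.1%) lower, also near the shares over all genes (26.3% and 21.3%). crabp1b, which binds retinoic acid in the cytosol, had 197, 51.2, 67.8 and 204 CPM in Neurod1 endoderm, 0.856, 0.0942 and 0 CPM in WT EECs and 68.2, 2.38 and 21.3 CPM in control endoderm, and all Neurod1 libraries were above WT EECs and not all above control.

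Markers of other cell types separated the sorts as well. Blood and vessel markers summed to 1213 to 2526 CPM in Neurod1 endoderm, 14.6 to 82.4 CPM in WT EECs and 673 to 2706 CPM in control endoderm, and 33 of 38 tested (86.8%) were higher than in WT EECs. Muscle markers summed to 1089, 22639, 3619 and 2521 CPM in Neurod1 endoderm, 606 to 893 CPM in WT EECs and 3622, 1437 and 34629 CPM in control endoderm, so 1 library of each endoderm group stood far above the others. The pigment genes TYRP1 (ENSDARG00000056151) and dct, among the genes of largest fold change, had 2849 and 2604 CPM and 517 and 560 CPM in Neurod1 replicates 3 and 4, under 4 CPM in replicates 1 and 2, no count in WT EECs and 23.5 to 590 CPM in control endoderm. Their part in the counts of higher genes was not tested.

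Enterocyte, liver and neuron markers were compared too. Of 40 enterocyte markers tested, 20 (50%) were lower in Neurod1 endoderm, 2 were higher and 18 did not pass, against 21.3% lower and 26.3% higher over all genes. SLC15A1, the peptide transporter, had 0 to 0.466 CPM in Neurod1 endoderm, 227 to 341 CPM in WT EECs and 0.393 to 0.566 CPM in control endoderm. FABP1 (ENSDARG00000059227), a fatty acid binding protein, had 82.9 to 163 CPM in Neurod1 endoderm against 18.1, 236 and 11.4 CPM in WT EECs, and liver markers summed to 521 to 1360 CPM in Neurod1 endoderm against 428, 3524 and 580 CPM in WT EECs. Replicate 2 of WT EECs was the high one for both, and without it FABP1 was higher in Neurod1 endoderm (log2 fold change 2.96, adjusted p = 0.00057). Neuron markers were lower in 14 of 37 tested (37.8%) and higher in 2, against 21.3% lower and 26.3% higher over all genes. This list holds 17 EEC-side genes with a mean of at least 10 CPM in WT EECs, so its counts do not measure neurons in either sort. RET, a receptor kinase of enteric neurons, had 16.6 to 33.7 CPM in Neurod1 endoderm, 496 to 611 CPM in WT EECs and 5.14 to 16.2 CPM in control endoderm. ELAVL3, a general neuron marker, overlapped in all groups at 8.07 to 48.5 CPM, 20.7 to 35.2 CPM and 2.19 to 200 CPM.

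**Figure D5:**
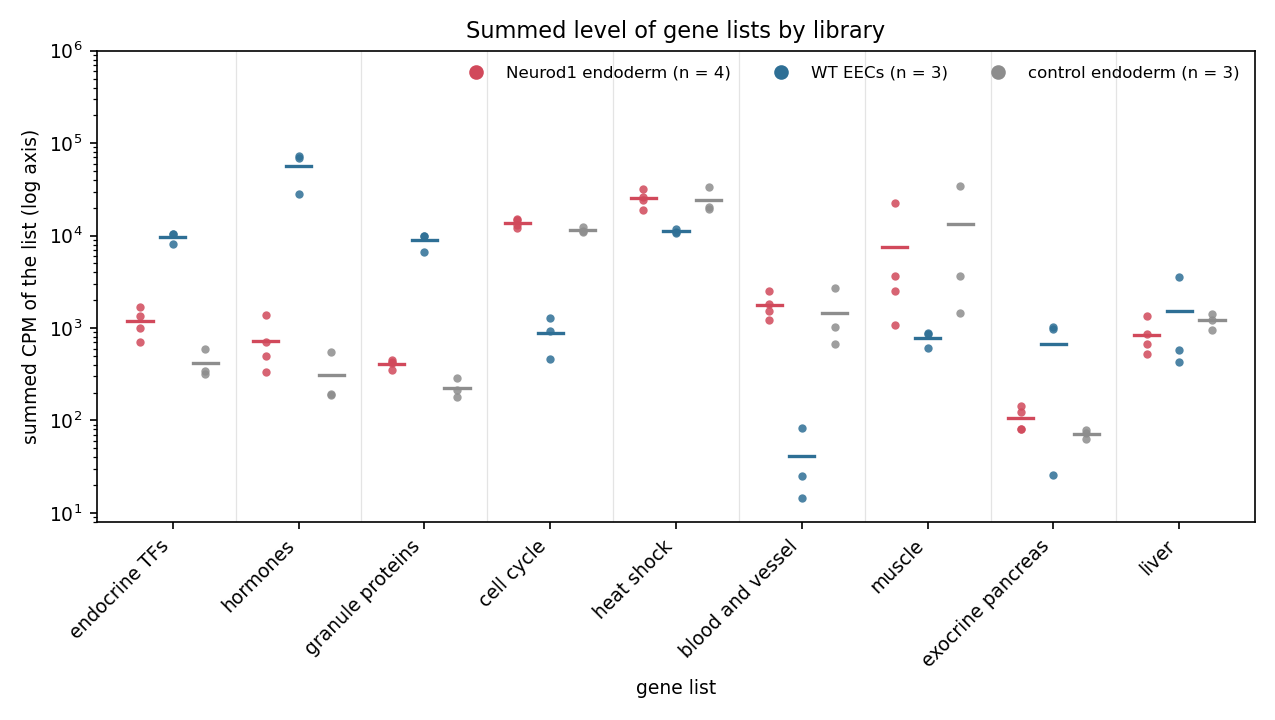
Summed CPM (log axis) of 9 gene lists in each library, with bars at group means for Neurod1 endoderm (n = 4), WT EECs (n = 3) and control endoderm (n = 3). Hormone sums were 336 to 1387 CPM in Neurod1 endoderm, 28265 to 73262 CPM in WT EECs and 191 to 552 CPM in control endoderm, while cell cycle sums of both endoderm groups lay above every WT EEC library.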

How the data were processed

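The authors sequenced Smart-seq2 libraries of sorted cells and deposited raw read counts per gene. STAR 2.5.4b and GRCz11 are named in the submitters' processing notes, and the strand setting is not given in the sources used here, so overlapping and antisense genes may share reads. Counts were fitted with edgeR 4.0.16 (R 4.3.3, limma 3.58.1) using TMM factors, filterByExpr and the quasi-likelihood test in 1 model of 10 libraries. Genes were called at an FDR (Benjamini-Hochberg) up to 0.1, and ± after a log2 fold change is its SE. CPM (edgeR's cpm value on TMM-scaled library sizes) is the level printed. EEC-side and endoderm-side genes came from a separate fit of 7 libraries. DESeq2 1.42.0, voom, RLE factors, other filters and designs and leaving out each library were tried as alternatives. The code was tested on simulated data.

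Libraries were grouped by label, and p-values measure the spread between pools of animals. All members and gene lists were chosen with earlier results of these data known. Per list and direction, up to 4 called genes with the largest fold change, no overlap and a mean of at least 10 CPM were named, with up to 2 not called, together with genes the study names, the top 10 over all genes and of the EEC side, and checks. Named outside this rule, after their values were seen, were isl1, ins, CARTPT, npb, NPY, agr1, IRS2, sst2 (plotted only) and the genes called against control or near the EEC level. Names match 29195 of 31902 IDs, 2358 through supplementary tables, and paralogs can share a symbol, in which case the ID is given. No columns of other samples were found (0).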

Additional observations from a re-analysis of the deposited data

Results flagged for a closer look

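Of 124 values looked at in the group of 4 Neurod1 libraries, 6 had 1 library far from the others by Dixon's ratio. For normally distributed values, chance alone gives about 1 in 20 (6.2). CPM from a few counts are not so distributed, and KCNB2 and PER1 stood at such low levels. In replicate 1, KCNB2 had 0.163 CPM, against no count in the other 3 libraries, and PER1 had 0.326 CPM, against 0.0641 to 0.0886 CPM. In replicate 2, PYY had 1.95 CPM, against 0.734 to 0.866 CPM in the other Neurod1 libraries, rtn1a was the low one with 193.9 CPM, against 389.3 to 427.9 CPM, and the muscle markers summed to 22640 CPM, against 1089 to 3619 CPM. In replicate 3, adcyap1a had 2.2 CPM, against 0.0816 to 0.256 CPM in the others. KCNB2, PER1, PYY and adcyap1a were far below WT EECs in every Neurod1 library all the same.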

How the results depend on the processing

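Calls between Neurod1 endoderm and WT EECs moved less with the processing than those between Neurod1 and control endoderm. Against WT EECs 8952 genes were called in either direction, and 5544 when a change above 2-fold was tested with glmTreat, with 7796 to 9831 when 1 library was left out. Against control endoderm 9 genes were called, 5 at an FDR of 0.05, 135 with DESeq2, 18 without a filter on low counts, 15 in a fit of all 23 libraries, and 0 to 14 when 1 library was left out. With a replicate block, no gene was called against control and 7231 against WT EECs. Deviations of libraries from their group mean were correlated over genes. For replicates 1, 2 and 3, Neurod1 endoderm had r of 0.07, 0.06 and -0.12 with WT EECs of the same number. With control endoderm of the same number, r was 0.29, 0.03 and 0.20. Neurod1 replicates 1 and 3 were nearest to the control of the same number, and replicate 2 to control replicate 1 (0.06). The numbers were not taken as pairs, and whether libraries of the same number were handled together was not tested. Leaving out 1 library gave 17 to 19 endocrine transcription factors, 21 to 22 hormones, 22 to 24 granule genes and 1918 to 1996 EEC-side genes lower in Neurod1 endoderm. The median log2 fold change turned positive for endoderm transcription factors without the filter (0.06) and without WT EEC replicate 1 (0.14, with -0.45 the lowest without 1 library), and for liver markers with limma voom (0.80) and without WT EEC replicate 2 (3.50, with -2.70 the lowest). For the secretory and goblet list it turned positive with voom (0.02), without the filter (0.01), with the replicate block (0.31), without WT EEC replicate 1 (0.07) and without replicate 2 (1.34, with -0.55 the lowest). The cause was not tested. Of 98 named genes that were followed through the settings, 79 kept direction and side of the threshold against WT EECs in all 17. In simulated counts of 18338 genes, 73 were changed 4-fold, 73 were changed 16-fold and 47 were changed 64-fold. The test against WT EECs recovered 32.9%, 68.5% and 87.2% of them. The data gave 8952 calls, and the FDR limit admits larger p-values where more genes differ. These shares therefore do not give the sensitivity of the real comparison, and how many changes it missed was not tested.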
